A study of Mus musculus with 9 samples.

Results

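Clones with an odd number of chromosome sets were compared with clones with an even number. Of 9 mouse embryonic cell clones, all p53-/- by their genotype field, 3 were labelled triploid and the other 6 were 3 diploid and 3 tetraploid clones. Every clone was untreated and grown in minimal essential medium with fetal bovine serum, and each was measured on 1 single-colour Agilent array. Members of interest were the genes at which all 3 triploid clones lay outside the range of the 6 even-ploidy clones, and the genes at which the triploid mean differed from the even-ploidy mean in a model across all features. Each array is 1 clone, 7 clone names extend the name of diploid clone 1, and whether all clones descend from 1 line is not given in the sources used here. The p-values therefore measure the spread between these clones, and ploidy cannot be told apart from any other change that the triploid clones share.

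Triploid mammalian cells divide with an uneven set of homologous chromosomes, and cells that lack p53, a transcription factor that halts division after damage or a failed mitosis, tolerate changes in chromosome number better than other cells do. Fibroblast-like cells keep a record of the body position they came from in their HOX genes: genes at the anterior end of each HOX cluster mark head and trunk levels, and genes at the posterior end mark caudal and distal levels such as the outer limb. The same cells can switch on alarm and acute-phase genes that act through the transcription factors NF-kB and C/EBP, and contractile and matrix genes that answer to TGF-beta.

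The arrays carried 55681 probes. Between 44.8% and 50.9% of their spots were well above background and 0 were saturated. The share of spots above background was 48.7% ± 1.83 (SD, n = 3) in triploid and 48.0% ± 2.36 (SD, n = 6) in even-ploidy clones (exact permutation test, two-sided, p = 0.702). Signals below are log2 values relative to the 75th percentile of their own array, so 0 is that percentile, and a probe counts as dark on an array where the scanner software did not call it well above background. Fibroblast and mesenchyme markers were present, with 19 of 26 well above background on all 9 arrays, and their summed log2 level was 11.4 to 11.9 in triploid and 11.7 to 12.2 in even-ploidy clones. The defining epithelial markers Cdh1 and Epcam, the blood marker Ptprc, the muscle regulator Myod1 and the pluripotency factor Pou5f1 were dark on all 9. Other members of their lists were not. On all 9 arrays, 4 of 14 epithelial and 3 of 12 blood and macrophage markers were well above background. So were 2 of 12 muscle and 5 of 14 pluripotent and germ cell markers. Trp53, the gene disrupted in all groups, was above background only in diploid clone 2 (-3.15), with -6.63 to -3.30 in the other 8, and whether its probe lies in the disrupted part is not known. The Y-linked gene Ddx3y read 0.63 to 2.51 in the 3 diploid clones and tetraploid clones 1 and 2, and was dark in the 3 triploid clones and tetraploid clone 3. The X-inactivation gene Xist was split otherwise. It was above background in diploid clones 1 and 2, tetraploid clone 3 and triploid clones 1 and 2, and dark in the others.

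Triploid clones were not well above background for posterior HOX genes such as Hoxd13 (at least 186-fold lower) and Hoxa11 (at least 110-fold), for the microfibril gene Mfap5 (at least 360-fold) and for the repressor gene Ahrr (at least 37.0-fold). They were higher in alarm and acute-phase genes such as Il33 (at least 22.5-fold), Hp (5.00 ± 0.60 in log2) and Cxcl12 (3.20 ± 0.50), each against 6 even-ploidy clones (n = 3 triploid clones, limma). Of 21797 features tested, 691 (3.17%) differed between triploid and even-ploidy clones at an adjusted p under 0.05 in the limma fit, with 261 (1.20%) higher and 430 (1.97%) lower in triploid clones. All 3 triploid clones lay outside the range of the other 6 at 2358 features (10.8%), above it at 1310 (6.01%) and below it at 1048 (4.81%). Which side held more features turned with the scaling: with arrays centred on their median 681 lay above and 1329 below, and with the percentile taken over probes well above background on all arrays 1101 lay above and 1310 below. The called features with a gene symbol numbered 495 (3.98% of the 12434 named genes), 153 higher and 342 lower. On the signals as read, dark arrays included, triploid clones were separated from the nearest even-ploidy clone by over 4 log2 units at 12 features below the range and at 0 above it, and by over 2 at 52 and 14. The median difference over all features was 0.13, and -0.04 with arrays centred on their median, where 136 features were higher and 406 lower, so the share of higher calls moved from 37.8% to 25.1%. Single-gene differences are given as fitted, and medians of gene lists relative to all features. Named genes were outside the range at 12.8%, and features without a gene symbol at 8.17% (5.65% above, 2.52% below, 2.09% called). The 4414 features that the array design names by coordinates alone were above it at 5.26%, below it at 1.74% and called at 1.54%.

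Of the 691 called features, 638 were outside the range, which is 92.3% of the called and 27.1% of those outside. Over all features, called or not, the triploid mean was above both even-ploidy means at 45.5%, below both at 25.9% and between them at 28.7%. A tetraploid minus diploid difference under 0.25 in size was found at 49.2% of features outside the range and at 39.8% of all features. The range rule favours features at which the even-ploidy clones lie close together, so a higher share is built into the rule. These shares therefore cannot show whether the even ploidies agree more at such features. The call count depended on single clones. It fell to 127 and 164 when triploid clone 3 or 2 was left out and reached 1626 when triploid clone 1 was. Leaving out diploid clone 1 or 3 gave 322 or 419, and leaving out tetraploid clone 1 or 2 gave 299 or 1202. Features above the range then numbered up to 3154 and those below up to 2240, both with triploid clone 1 left out, and 2090 and 2600 lay above with triploid clone 3 or tetraploid clone 2 left out. The number of features called in the fit of all clones and in each of the 9 fits without 1 clone was 96, 28 higher and 68 lower.

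**Figure D1:**
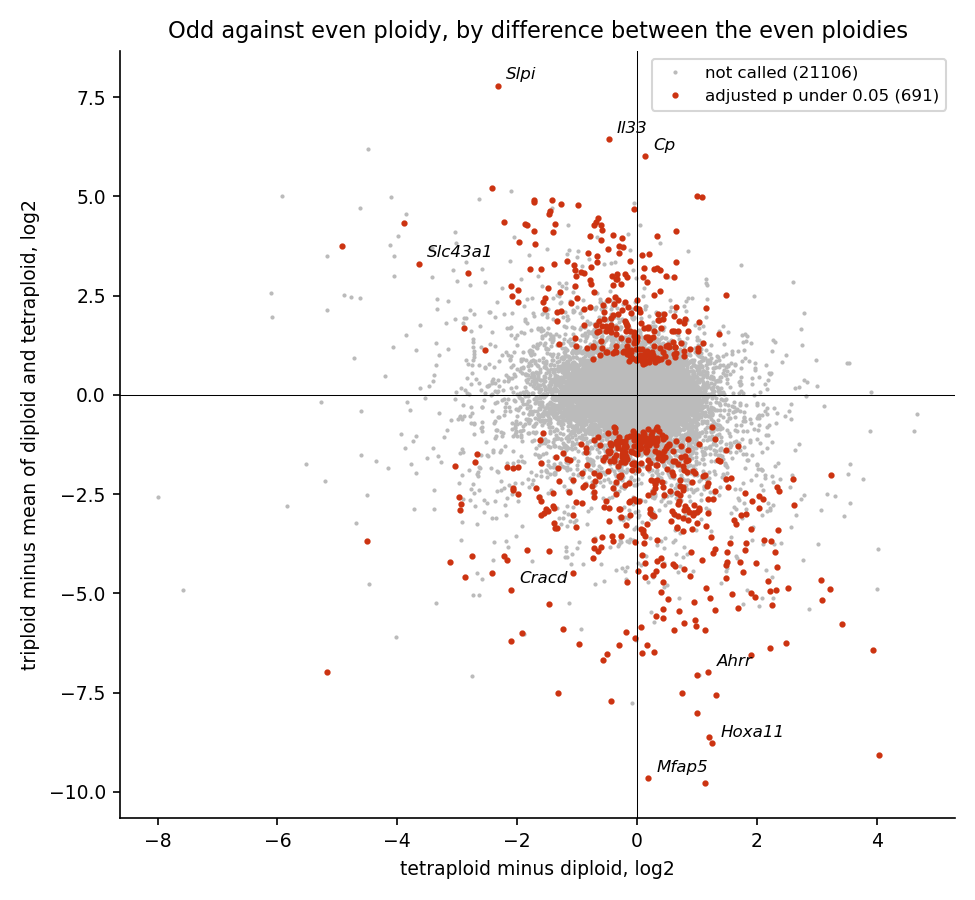
Each point is 1 of 21797 features, with the tetraploid minus diploid difference (log2) on the x axis and the triploid minus even-ploidy difference (log2) on the y axis; the 691 called features are red. Hoxa11, Mfap5, Il33 and Cp lie far out on the y axis. On the x axis Mfap5 lies near the middle and Hoxa11 to its right, higher in tetraploid than in diploid clones. Slc43a1 and Cracd lie to the left, lower in tetraploid than in diploid clones.

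Triploid clone 1 was the triploid clone nearest to the even-ploidy clones at 677 of the 1310 features above (51.7%) and at 522 of the 1048 below (49.8%). Its correlation with triploid clones 2 and 3 over all features was 0.948 and 0.956, and that of clones 2 and 3 was 0.985. These correlations are across features, which are not replicates. On the even side, tetraploid clone 2 was nearest at 566 features above (43.2%) and diploid clone 2 at 339 below (32.3%). The range is a sharp edge: Emc4, of the membrane protein insertion complex, lay just outside it with its lowest triploid clone at 7.05 and its highest even-ploidy clone at 7.05, and Psenen, a gamma-secretase subunit, lay just below it at 5.22 against 5.22. Tnfaip8 and Zdhhc1 lay as closely inside, with 2.61 for both the lowest triploid and the highest even-ploidy clone of the former, and -0.87 for both the highest triploid and the lowest even-ploidy clone of the latter.

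Counted the same way, 3 diploid clones lay outside the range of the other 6 at 1648 features (7.56%) and 3 tetraploid clones at 1623 (7.45%). In the model, 55 features (0.252%) set diploid clones and 122 (0.560%) set tetraploid clones apart from the other ploidies. Tetraploid against diploid clones gave 16 (0.0734%). These comparisons use the same 9 arrays and their difference was not tested.

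**Figure D2:**
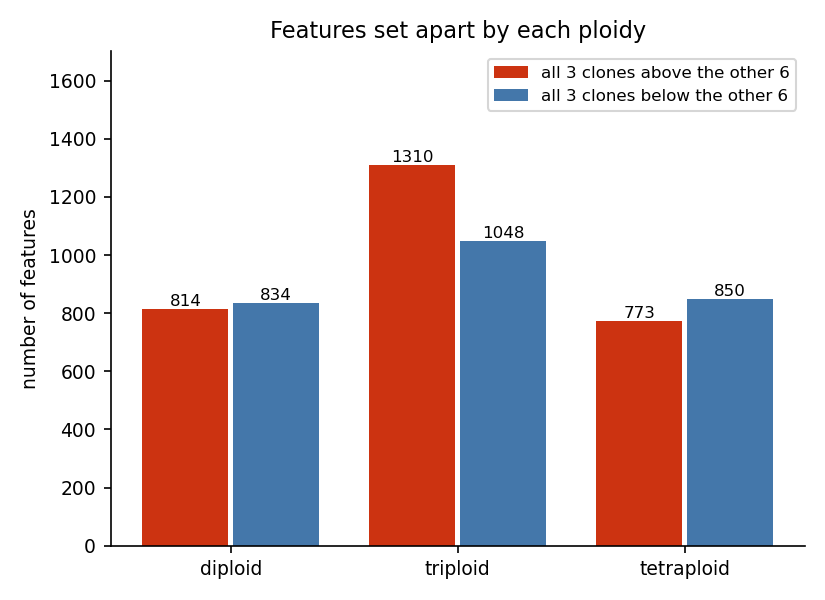
Bars give, for each ploidy on the x axis, the number of features (y axis) at which its 3 clones all lie above (red) or below (blue) the other 6. The triploid bars stand at 1310 and 1048, the diploid bars at 814 and 834, and the tetraploid bars at 773 and 850.

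Posterior HOX genes that were bright in even-ploidy clones were dark or dim in triploid clones. Of 16 listed genes, 9 passed the filter, and 7 of these were called lower, all 7 with the 3 triploid clones below the range, and 0 were called higher (background 1.97% lower, 4.81% below). Of the 9, 6 were dark in all triploid clones and passed only through the groups in which they were bright, so the count is a description of the genes that passed. The median of the list was -5.81 relative to all features, or -4.00 with genes that were dark in all triploid clones held at the dimmest signal that passed the background flag. The median ranged from -6.24 to -2.38 over all settings. Lower calls numbered 7 in each fit without 1 clone, and with probes well above background on all arrays 1 gene of the list was left, which was called lower. The list was chosen with earlier results of these data known, so its direction is not independent evidence. In RNA from whole cultures, fewer cells that express a gene and less RNA per cell cannot be told apart.

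Hoxd13, a transcription factor of the most distal limb, read 4.13, 0.98 and 4.65 in diploid clones 1 to 3, 4.33, 4.23 and 4.62 in tetraploid clones, and -5.81, -6.12 and -5.92 in triploid clones, where it was dark. Every even-ploidy clone was bright and the groups did not overlap. Hoxd13 was at least 186-fold lower in triploid clones (fitted difference -9.77 ± 0.68 SE, adjusted p = 0.000398). Hoxa11, which patterns the middle segment of the limb, read 2.98, 1.48 and 2.84 in diploid, 3.20, 4.01 and 3.84 in tetraploid and -5.59, -5.84 and -5.72 in triploid clones. It was dark in all triploid clones and at least 110-fold lower (-8.78 ± 0.34, adjusted p = 7.35e-06). Hoxa11os, an RNA transcribed from the strand opposite Hoxa11, fell by 8.63 ± 0.48 (adjusted p = 7.83e-05), from 3.57 to 6.35 in even-ploidy clones to -3.44 to -2.85 in triploid clones, of which clone 3 was dark.

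The promoters of HOX genes usually hold many CpG pairs. The sequence around the start of Hoxd13 is shown because the gene was bright in every even-ploidy clone and dark in every triploid clone (RefSeq, GRCm38.p6, chr2:74667975-74668274, plus strand). Capitals mark 2 overlapping matches to TATAAA on either strand, 126 and 124 bases before the start.
Hoxd13 promoter: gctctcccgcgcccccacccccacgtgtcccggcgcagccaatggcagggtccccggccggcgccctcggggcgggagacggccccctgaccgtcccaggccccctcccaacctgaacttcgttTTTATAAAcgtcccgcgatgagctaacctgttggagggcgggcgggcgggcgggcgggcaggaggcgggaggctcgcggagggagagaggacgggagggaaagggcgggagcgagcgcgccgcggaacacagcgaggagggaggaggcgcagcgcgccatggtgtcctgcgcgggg
It holds 37 CpG pairs, against a median of 20 over the promoters of 9950 named genes tested, while the Hoxa11 promoter holds 15 and has 0 matches to TATAAA. A match was present in 7.91% of promoters of tested genes, in 12.5% of the 263 promoters of genes called lower and in 14.2% of the 127 of genes called higher. A match is a description of letters, not of a used site.

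The other HOX genes did not all go the same way. Hoxd10 was at least 24.6-fold, Hoxd11 at least 21.4-fold, Hoxa13 at least 14.6-fold and Hoxd12 at least 13.9-fold lower in triploid clones, and all were dark there. Hoxa9, at the start of the posterior group, was above background on all 9 arrays and fell by 2.25 ± 0.24 (adjusted p = 0.00261), from -1.49 to -0.52 in even-ploidy clones to -3.26 to -2.93. The remaining posterior members, named after their values were seen, were Hoxd9 (-1.94, adjusted p = 0.304) and Hoxc12 (0.23, adjusted p = 0.675). Among 12 anterior and central HOX genes, 1 was called higher and 1 lower, and the median was 0.60, with a range over all settings of 0.33 to 1.08. Hoxd4 was the member called higher (3.14 ± 0.65, adjusted p = 0.0367), with triploid clones at 0.02 to 2.33 and even-ploidy clones at -3.17 to 0.12, so the groups overlapped. Hoxa7 was the member called lower (-3.36 ± 0.57, adjusted p = 0.0208). Both calls ended without triploid clone 3, among other clones, with highest adjusted p values of 0.155 for Hoxd4 and 0.0775 for Hoxa7. Hoxd4 also lost its call without diploid clones 1 and 3, triploid clone 1 and tetraploid clones 1 and 3, and Hoxa7 without diploid clone 1 and triploid clone 2.

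**Figure D3:**
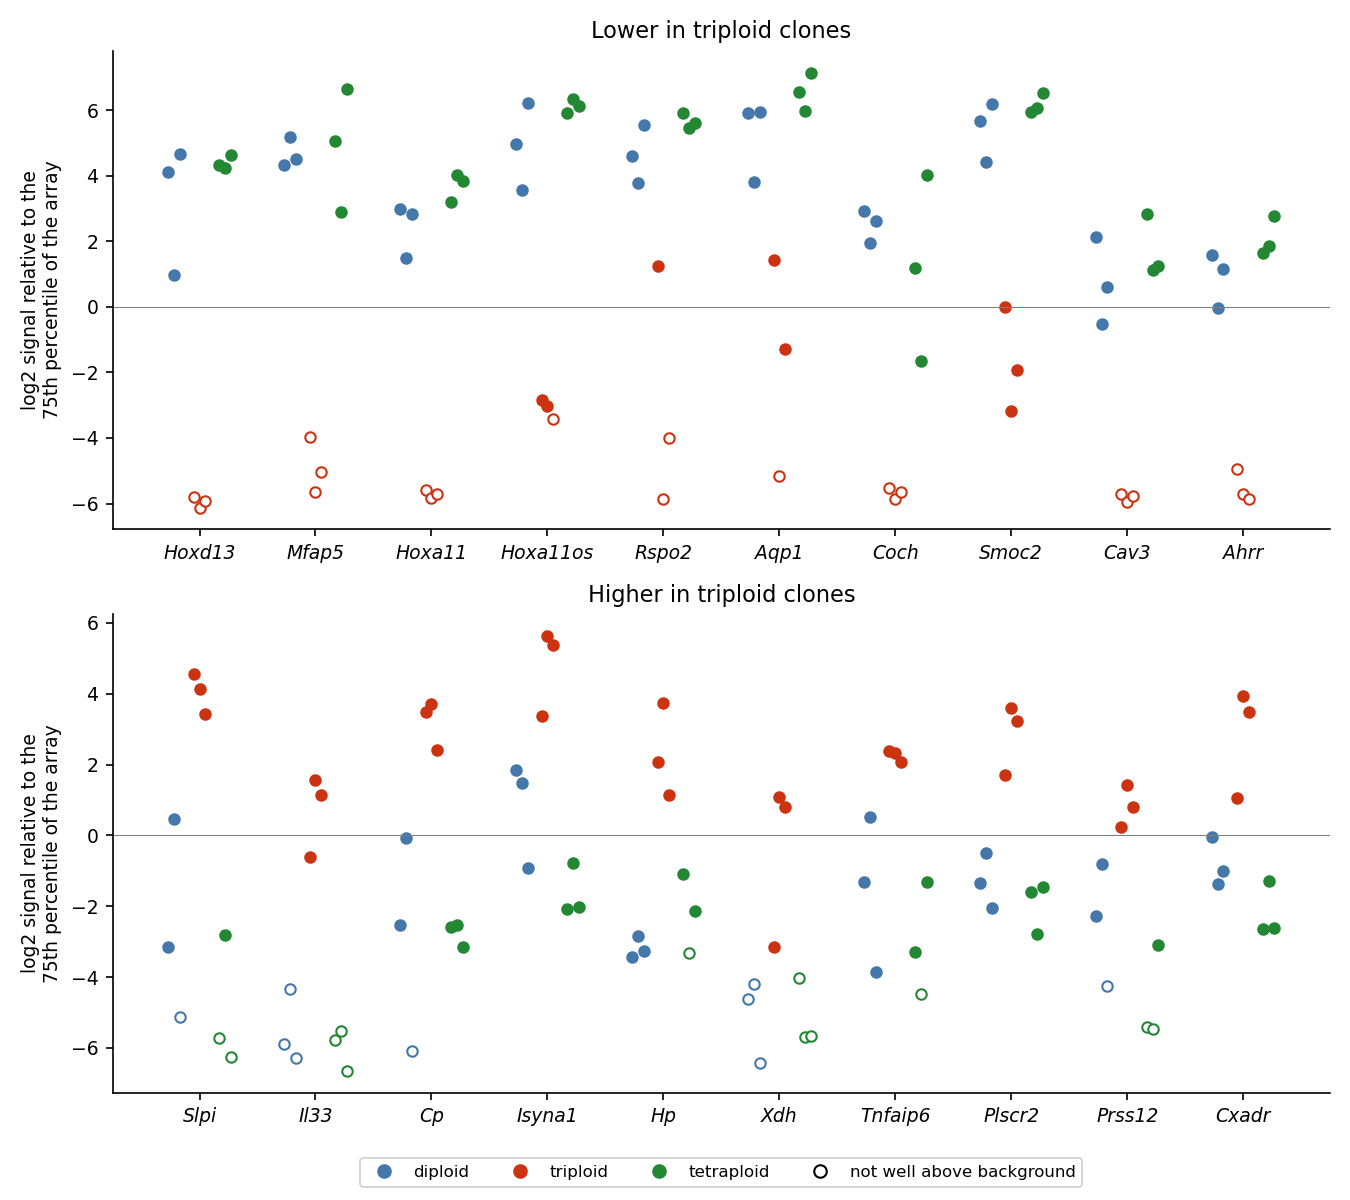
Every point is 1 clone, with its centred log2 signal on the y axis (0 is the 75th percentile of its array), for the 10 named genes of largest fitted difference in each direction on the x axis; open points are dark. In the upper panel all triploid points (red) of Hoxd13, Hoxa11, Mfap5, Coch, Cav3 and Ahrr are open, and in the lower panel all even-ploidy points of Il33 and Xdh are open.

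Among other transcription factors of limb and mesenchyme position, Tbx15, Meox2 and Msx2 fell and Meis2 rose. Of 22 measured, these 3 were called lower and 1 higher (background 1.97% and 1.20%), 5 lay below the range and 1 above it (background 4.81% and 6.01%), 8 had a higher triploid mean, and the median was -1.29, with -1.45 to -0.43 over all settings. Tbx15, a T-box factor of skin and skeleton, read 2.51 to 4.20 in even-ploidy clones and 0.62, -0.57 and 1.18 in triploid clones (-3.02 ± 0.38, adjusted p = 0.00604). Meox2, a homeobox factor of early mesoderm, was dark in all triploid clones and at least 5.06-fold lower. Msx2, a homeobox factor of bone and skin development, fell by 2.50 ± 0.46 (adjusted p = 0.0267). Meis2, a HOX partner of the proximal limb, rose by 2.60 ± 0.47 (adjusted p = 0.0241), with 2.47, 2.72 and 2.85 in triploid clones and -1.06 to 1.85 in the others. Its call ended without diploid clone 1 or triploid clones 2 or 3, and that of Msx2 without diploid clones 1 or 3 or triploid clones 2 or 3, with highest adjusted p values of 0.111 and 0.121. Without triploid clone 1 the list had 2 members higher and 7 lower.

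Genes of secreted and matrix proteins were among the other large losses. Mfap5, a glycoprotein of elastin microfibrils, read 4.32, 5.19 and 4.52 in diploid and 5.06, 2.89 and 6.63 in tetraploid clones, and -3.96, -5.63 and -5.04 in triploid clones, where it was dark. It was at least 360-fold lower (-9.65 ± 0.71, adjusted p = 0.000528), and its tetraploid minus diploid difference was 0.18. Smoc2, a calcium-binding matrix protein, fell by 7.50 ± 0.64 (adjusted p = 0.00120), from 4.41 to 6.54 in even-ploidy clones to 0.00, -3.17 and -1.93, and remained above background in all 9. Coch, a secreted protein named for the cochlea, was at least 47.1-fold lower, with even-ploidy clones spread from -1.67 to 4.02. Rspo2, a secreted amplifier of Wnt signalling, read 3.77 to 5.90 in even-ploidy clones and 1.24 in triploid clone 1, and was dark in triploid clones 2 and 3 (-8.02 ± 1.26, adjusted p = 0.0157, and 0.0818 without triploid clone 3). The water channel Aqp1 had the same order of triploid clones, with 1.42, -5.17 and -1.29 against 3.81 to 7.15 (-7.57 ± 1.19, adjusted p = 0.0157, and 0.0666 without triploid clone 3), and it was dark in clone 2.

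Membrane and signalling genes with separated groups included Cav3, Ahrr, Cspg4 and Cracd. Cav3, the muscle caveolin, was dark in all triploid clones and at least 31.1-fold lower, and the muscle regulators Myod1 and Myog were dark on all 9 arrays. Cspg4, a surface proteoglycan of pericytes and progenitor cells, read 2.27, 2.57 and 2.55 in diploid, 2.67, 2.90 and 3.70 in tetraploid and -2.62, -3.62 and -3.20 in triploid clones (-5.92 ± 0.29, adjusted p = 3.25e-05). It was dark in triploid clone 2, and the groups were separated by 4.90. Dach2, a nuclear cofactor of muscle and limb development, was dark in triploid clones and at least 5.98-fold lower. Lpin3, a phosphatidate phosphatase, fell by 4.43 ± 0.46 (adjusted p = 0.00261), was dark in triploid clone 3, and had diploid and tetraploid means that differed by 0.02. The calls of Hoxd13, Hoxa11, Mfap5, Smoc2, Coch, Cav3, Ahrr, Cspg4, Dach2 and Lpin3 were kept in each fit without 1 clone.

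Ahrr, the repressor that competes with the aryl hydrocarbon receptor and is itself switched on by it, read 1.58, -0.05 and 1.15 in diploid, 1.64, 1.85 and 2.77 in tetraploid and -4.93, -5.69 and -5.85 in triploid clones. It was dark in all triploid clones and at least 37.0-fold lower (-6.98 ± 0.41, adjusted p = 9.95e-05). The receptor gene Ahr, looked up after these values were seen, was higher in triploid clones, with 1.75, 3.36 and 3.05 against 0.20 to 1.96 (1.83 ± 0.37, adjusted p = 0.0343), and its groups overlapped. That call ended without any of the 3 diploid clones, triploid clones 2 or 3 or tetraploid clone 1, with a highest adjusted p of 0.153. The Ahrr promoter (RefSeq, GRCm38.p6, chr13:74292282-74292581, minus strand) is shown because the receptor binds the letters GCGTG. Capitals mark the 3 matches on either strand, the nearest 27 bases before the start.
Ahrr promoter: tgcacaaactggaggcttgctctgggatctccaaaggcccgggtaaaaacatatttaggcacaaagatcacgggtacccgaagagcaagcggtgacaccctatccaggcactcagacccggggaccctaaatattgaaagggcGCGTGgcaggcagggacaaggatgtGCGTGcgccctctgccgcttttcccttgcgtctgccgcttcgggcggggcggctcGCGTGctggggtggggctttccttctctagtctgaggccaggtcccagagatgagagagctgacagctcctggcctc
GCGTG was present in 50.7% of promoters of tested genes, 43.3% of those called lower and 48.0% of those called higher.

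Il33, Saa3, Hp, Slpi, Cxcl12, Cp and C3, genes of alarm and acute-phase proteins, were higher in triploid clones. Of 30 measured NF-kB targets, alarmins and cytokines, 7 were called higher and 0 lower, 11 lay above the range and 1 below it, and the median was 0.81, or 0.75 with dark genes at their bound (background 1.20% higher, 6.01% above). Il33, Saa3, Slpi and Lif passed the filter only through the triploid arrays, so the counts are a description of the genes that passed. With probes well above background on all arrays, 2 of 20 were called higher. The number called higher was 3 without triploid clone 2 and 5 without triploid clone 3, and without triploid clone 1 it was 7 with 4 lower. The median was 0.34 to 0.93 over all settings.

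Il33, an alarm cytokine that stromal cells hold in the nucleus, was dark in all 6 even-ploidy clones (-6.65 to -4.33) and read -0.62, 1.55 and 1.15 in triploid clones. It was at least 22.5-fold higher (6.44 ± 0.57, adjusted p = 0.00120). Saa3, an acute-phase apolipoprotein, was likewise dark in all even-ploidy clones (-6.04 to -4.49), read -0.95, -0.58 and -2.30 in triploid clones and was at least 5.74-fold higher (4.13 ± 0.39, adjusted p = 0.00169). Hp, the haemoglobin scavenger haptoglobin, read 2.07, 3.75 and 1.14 in triploid clones against -3.44 to -1.10 (5.00 ± 0.60, adjusted p = 0.00471). These calls were kept in each fit without 1 clone. Slpi, an inhibitor of leukocyte proteases, read 4.55, 4.13 and 3.42 in triploid clones (7.79 ± 1.14, adjusted p = 0.0117). The even-ploidy clones were widely spread, at -3.15, 0.47 and -5.11 in diploid and -5.71, -2.80 and -6.26 in tetraploid clones, and diploid clone 3 and tetraploid clones 1 and 3 were dark. With dark arrays held at the dimmest signal that passed the background flag, the Slpi difference was 6.98.

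Cp, the copper-carrying ferroxidase ceruloplasmin, rose by 6.03 ± 1.04 (adjusted p = 0.0213), with 3.47, 3.71 and 2.41 in triploid clones and -6.08 to -0.09 in the others, of which diploid clone 3 was dark. Cxcl12, a chemokine that stromal cells secrete, was bright everywhere and nearly the same in the 3 triploid clones, at 8.10, 8.21 and 8.40 against 3.53 to 5.97 (3.20 ± 0.50, adjusted p = 0.0150). C3, the central complement protein, rose by 1.68 ± 0.37 (adjusted p = 0.0455). Tnfaip6, a hyaluronan-binding protein made in inflammation and not on the list, read 2.38, 2.32 and 2.06 against -4.47 to 0.51 (4.55 ± 0.91, adjusted p = 0.0338). Slpi, Cp and Cxcl12 lost their calls without triploid clone 2 or 3, with highest adjusted p values of 0.0537, 0.0995 and 0.0747. Tnfaip6 lost it without diploid clone 1, triploid clones 2 or 3 or tetraploid clone 1 (up to 0.131), and C3 without any diploid or tetraploid clone or triploid clone 2 (up to 0.117). Of 12 macrophage and blood markers, 7 were dark on all 9 arrays, among them Ptprc, Adgre1 and Laptm5, and 3 were above background on all 9. In tetraploid clone 3, which shared the dark Y-linked genes of the triploid clones, Il33 read -6.65, Slpi -6.26 and Hoxd13 4.62, on the even-ploidy side. These are 3 genes of 1 clone, each named because the triploid clones lay outside the range of the other 6. That rule alone puts tetraploid clone 3 on the even-ploidy side, and the part of sex-linked differences in the other differences was not tested.

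The promoters of Saa3 and of the protease gene Mmp10 are printed as examples that held a match to the pattern chosen for each gene. Both genes were dark in all 6 even-ploidy clones and above background in all 3 triploid clones, as were Il33, Lif, Depp1 and Xdh. In Saa3 (RefSeq, GRCm38.p6, chr7:46715627-46715926, minus strand), capitals mark the 4 matches to TTNNGNAA, a loose form of the C/EBP pattern, on either strand, 216, 191, 129 and 99 bases before the start.
Saa3 promoter: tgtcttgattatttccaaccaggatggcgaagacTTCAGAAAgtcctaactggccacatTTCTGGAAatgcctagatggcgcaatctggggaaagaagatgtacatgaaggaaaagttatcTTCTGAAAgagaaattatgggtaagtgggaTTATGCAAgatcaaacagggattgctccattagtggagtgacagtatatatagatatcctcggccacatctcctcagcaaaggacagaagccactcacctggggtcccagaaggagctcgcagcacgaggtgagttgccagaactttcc
In Mmp10 (RefSeq, GRCm38.p6, chr9:7502092-7502391, plus strand), capitals mark the only match to TGANTCA, the AP-1 pattern, on either strand, 63 bases before the start.
Mmp10 promoter: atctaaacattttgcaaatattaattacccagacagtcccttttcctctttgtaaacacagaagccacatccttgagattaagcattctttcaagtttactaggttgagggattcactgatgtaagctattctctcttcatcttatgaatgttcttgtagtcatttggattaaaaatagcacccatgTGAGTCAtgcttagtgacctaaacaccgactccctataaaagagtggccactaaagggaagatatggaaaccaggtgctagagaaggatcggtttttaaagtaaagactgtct
The Il33 promoter, for which TGANTCA was chosen, held 0 matches to it and 1 to TTNNGNAA. Saa3 held 0 matches to TGANTCA, and Mmp10 held 1 to TTNNGNAA. TTNNGNAA was present in 31.4% of promoters of tested genes and in 33.9% of those called higher, and TGANTCA in 4.98% and 6.30%. Cebpb, which encodes a C/EBP factor, rose in triploid clones by 1.06 ± 0.21 (adjusted p = 0.0323), with 4.69, 5.34 and 5.33 against 3.68 to 4.62. Its call ended without any diploid clone, triploid clones 2 or 3 or tetraploid clone 1, with adjusted p values up to 0.158.

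The protease Mmp10 itself, a stromelysin that cleaves matrix, was dark in all even-ploidy clones (-6.46 to -4.42), read -0.85, -0.39 and -1.49 in triploid clones and was at least 7.40-fold higher (4.28 ± 0.45, adjusted p = 0.00261). Among 25 matrix proteases and inhibitors, Mmp10 and Slpi were called higher (background 1.20% higher, 1.97% lower). Both passed the filter only through the triploid arrays. With probes well above background on all arrays, 0 of 17 were called higher. Mmp11, another stromelysin, was called lower (-1.56 ± 0.26, adjusted p = 0.0190). The Mmp11 call ended without triploid clone 2 or 3 (up to 0.0865). The list's median was -0.15 and changed sign between settings, from -0.65 to 0.21.

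Genes of enzymes and membrane proteins were among the other large rises. Isyna1, the enzyme that starts inositol synthesis, read 3.37, 5.63 and 5.39 in triploid clones, -2.08 to 1.85 in the others, and rose by 5.21 ± 0.70 (adjusted p = 0.00866, and 0.0519 without triploid clone 3). Mtfp1, a protein of mitochondrial fission, showed tight groups, with 3.01, 3.74 and 3.03 against -0.77 to 0.93 (3.21 ± 0.35, adjusted p = 0.00328). Syngr1, a vesicle membrane protein, read 0.82, 0.69 and 0.80 against -2.44 to -1.24 (2.60 ± 0.22, adjusted p = 0.00120). Dbndd1, whose role is little known, differed among triploid clones by an SD of only 0.03, at -0.48, -0.46 and -0.52 against -3.35 to -2.26 (2.27 ± 0.23, adjusted p = 0.00245). Tmem176b, a membrane protein of immune and stromal cells, rose by 2.97 ± 0.40 (adjusted p = 0.00835). Plscr2, a phospholipid scramblase, rose by 4.46 ± 0.51 (adjusted p = 0.00378), and its neighbour in the family Plscr1 by 2.22 ± 0.30 (adjusted p = 0.00870, and 0.0519 without triploid clone 3). Depp1, a target of FOXO factors, was dark in all even-ploidy clones and at least 3.55-fold higher. Xdh, the enzyme that makes uric acid, was at least 10.4-fold higher, but triploid clone 1 at -3.15 was close to the dark even-ploidy clones (-6.44 to -4.04), and its adjusted p rose from 0.0343 to as much as 0.153 without diploid clones 1 or 3, triploid clones 2 or 3 or tetraploid clones 1 or 3. Mtfp1, Syngr1, Dbndd1, Tmem176b, Plscr2, Depp1 and Mmp10 were called in each fit without 1 clone.

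Itga5, Thbs1 and genes of contractile proteins were lower in triploid clones. Of 22 targets of TGF-beta and smooth muscle genes, 6 were called lower and 0 higher (background 1.97% and 1.20%), 6 lay below the range (background 4.81%), and the median was -0.83, and no higher than -0.79 in any setting. Itga5, a fibronectin receptor subunit, fell by 1.39 ± 0.19 (adjusted p = 0.00847), from 1.34 to 1.87 in even-ploidy clones to -0.06, 0.20 and 0.35, and was called in each fit without 1 clone. The matrix protein Thbs1 read 4.97, 5.11 and 5.01 in triploid clones against 6.16 to 7.44 (-1.88 ± 0.27, adjusted p = 0.0110). The calponins Cnn2 (-1.14 ± 0.17) and Cnn1 (-2.32 ± 0.47) and the tropomyosin Tpm2 (-1.72 ± 0.32) also fell, at adjusted p values of 0.0130 to 0.0343. The count was 1 without triploid clone 3, 3 without triploid clone 2, diploid clone 1 or tetraploid clone 1, and 4 without tetraploid clone 3.

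Among 36 collagens and matrix genes, 3 were called lower and 0 higher (background 1.97% and 1.20%), 6 lay below the range and 0 above (background 4.81% and 6.01%), 8 had a higher triploid mean, and the median was -0.81 (-0.91 to -0.30 over all settings). Besides Mfap5 these were Fbln5, which organises elastic fibres, and Lum, a collagen-binding proteoglycan. Fbln5 read 2.98, 2.63 and 3.25 against 5.12 to 5.90 (-2.63 ± 0.24, adjusted p = 0.00169). Without tetraploid clone 2 the list had 7 lower, and without triploid clone 1 it had 7 lower and 4 higher. Among 26 Wnt ligands, receptors and antagonists, 1 was called higher and 3 lower (background 1.20% and 1.97%), with a median of -0.56 (-0.79 to -0.19). Dkk2, a Wnt antagonist, read -2.99 in triploid clone 1, was dark in triploid clones 2 and 3, and lay at 1.08 to 2.80 in the others (-6.29 ± 0.63, adjusted p = 0.00218). Ccn5, a matrix protein that Wnt signalling induces, fell by 4.57 ± 0.66 (adjusted p = 0.0110, and 0.0620 without triploid clone 3), the third lower member was Rspo2, and the ligand Wnt5b rose by 2.11 ± 0.42 (adjusted p = 0.0332). The Wnt5b call ended without diploid clone 1, triploid clones 2 or 3 or tetraploid clones 1 or 3, with adjusted p values up to 0.147. Lower calls on the Wnt list numbered 1 without triploid clone 3.

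**Figure D4:**
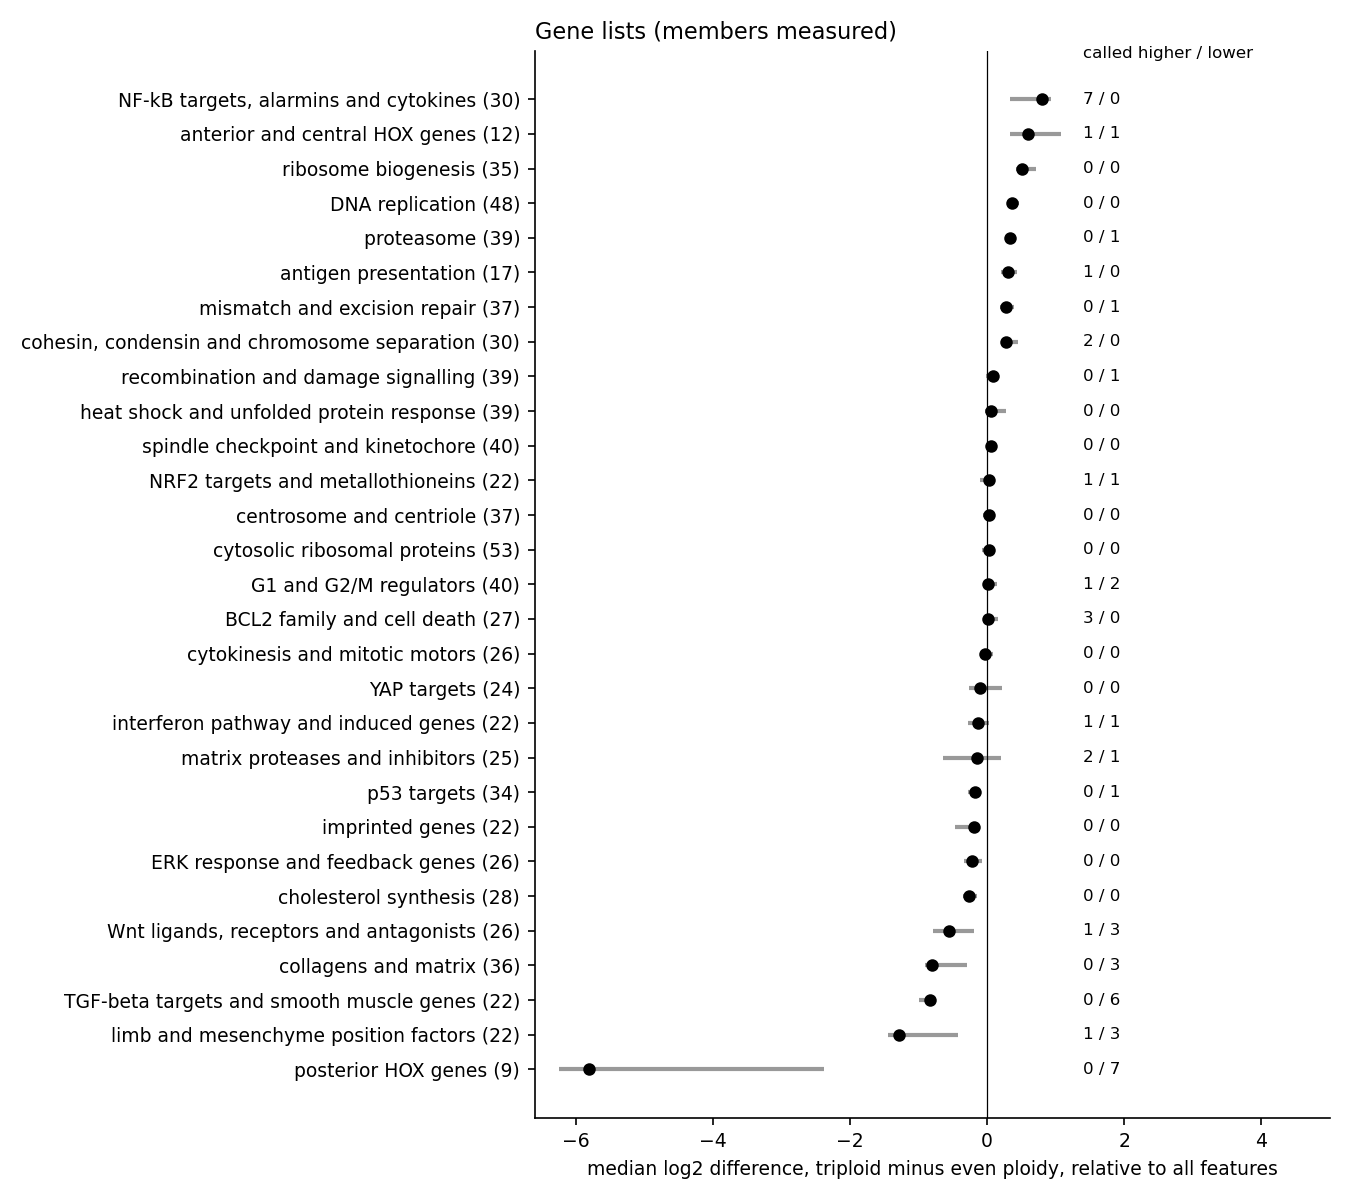
Dots give the median log2 difference between triploid and even-ploidy clones relative to all features (x axis) for each gene list (y axis, number measured in brackets), grey lines give the range over the processing settings, and the figures on the right count called members. Posterior HOX genes lie far to the left with 7 called lower, and the list of NF-kB targets lies at the top with 7 called higher.

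Markers of some cell types moved with the groups as well. Of 25 measured fibroblast and mesenchyme markers, 3 were called lower (Meox2, Snai2 and Lum) and 0 higher, and their median was -0.83. The background for each marker list was 1.97% lower and 1.20% higher. Endothelium, blood, muscle, neural, pluripotent and trophoblast lists, with 4 to 7 markers measured in each, had 0 called and 0 outside the range. Snai2, a factor of mesenchymal identity, fell by 1.95 ± 0.27 (adjusted p = 0.0101). Of 6 measured epithelial markers, Krt19 and Krt7 were lower, and the Krt7 call (-1.64 ± 0.37, adjusted p = 0.0493) was kept in only 3 of the 9 fits without 1 clone (adjusted p up to 0.153). Krt19, a keratin of simple epithelia, read 4.90, 3.46 and 5.01 in diploid, 4.92, 5.61 and 4.96 in tetraploid and -1.04, 0.48 and -1.31 in triploid clones (-5.43 ± 0.47, adjusted p = 0.00120). The summed log2 level of the epithelial list was 0.76 to 1.57 in triploid and 3.84 to 5.66 in even-ploidy clones. In even-ploidy clones Krt19 alone, at 3.46 to 5.61, was close to that sum. Of the 14 members, 5 were dark in all, Cdh1, Cldn3, Epcam, Grhl2 and Ocln. Among 9 measured markers of cartilage, bone and fat cells, Fabp4, a fatty acid carrier of fat cells, fell by 5.92 ± 0.72 (adjusted p = 0.00506), and Col10a1, a collagen of growth-plate cartilage, fell by 6.43 ± 0.74 (adjusted p = 0.00378). Col10a1 was dark in triploid clones 2 and 3, and its difference was -5.38 with dark arrays held at the dimmest signal that passed. Pparg, the regulator of fat cell formation, fell by 2.88 ± 0.48 (adjusted p = 0.0194, and 0.0913 without triploid clone 2). Cebpb was the member called higher. The part of a changed cell mixture in the other differences was not tested.

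Few genes of DNA copying and division were called. Of 48 DNA replication genes 0 were called in either direction (background 1.20% higher, 1.97% lower). Of the 48, 5 lay above the range (10.4%, against 6.28% of named genes) and 42 had a higher triploid mean relative to all features. Their median was 0.36 (0.31 to 0.46 over all settings). Ribosome biogenesis genes had 0 of 35 called and 6 above the range (17.1%), with a median of 0.51 (0.43 to 0.72). Relative to all features, 32 of these 35 and 25 of 37 mismatch and excision repair genes had a higher triploid mean. Mismatch and excision repair genes had 7 of 37 above the range (18.9%), 0 called higher and Ercc1, a nuclease subunit, called lower (-1.45 ± 0.21, adjusted p = 0.0122, and up to 0.0742 without triploid clone 2 or 3), with a median of 0.28. At a p not adjusted for the number of tests, 4893 of all features were under 0.05. Without tetraploid clone 2, whose own list median was the highest of the 6 even-ploidy clones for each of these 3 lists, 8 replication, 6 ribosome biogenesis and 5 repair genes were called higher.

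Cohesin, condensin and chromosome separation genes had 2 of 30 called higher (background 1.20%), with a median of 0.28. Of the 30, 4 lay above the range (13.3%, against 6.28% of named genes). Smc3, a core subunit of the cohesin ring, read 4.40, 4.80 and 4.72 against 3.38 to 4.05 (0.90 ± 0.19, adjusted p = 0.0426), and Cdca5, which protects cohesin on chromosomes, rose by 0.82 ± 0.18 (adjusted p = 0.0484). The number called was 0 without any diploid clone, without triploid clones 2 or 3 and without tetraploid clones 1 or 3, and also with arrays centred on the median. Spindle checkpoint and kinetochore (40 genes), centrosome and centriole (37) and cytokinesis and mitotic motor genes (26) had 0 called, and their medians of 0.05, 0.03 and -0.02 changed sign between settings. Of 40 regulators of G1 and G2/M, 1 was called higher and 2 lower (background 1.20% and 1.97%). On this list 5 lay above the range and 2 below it (background 6.01% and 4.81%). Tfdp2, the partner of E2F factors, was higher (1.34 ± 0.20, adjusted p = 0.0140, and up to 0.0786 without triploid clone 2 or 3). E2f6 (-1.16 ± 0.24, adjusted p = 0.0395) and the cyclin Ccnd1 (-1.74 ± 0.38, adjusted p = 0.0443) were lower, and kept their calls in 3 of the 9 fits without 1 clone. Cytosolic ribosomal protein genes had 0 of 53 outside the range.

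Inducers of cell death in the BCL2 family were higher, Bmf and Bcl2l11. Bmf read -0.71, 0.03 and -0.31 in triploid clones and -2.77 to -1.77 in the others (2.03 ± 0.23, adjusted p = 0.00378). Bcl2l11, which encodes BIM, read -0.56, -0.47 and 0.36 against -2.72 to -1.87 (2.04 ± 0.29, adjusted p = 0.0102). These calls were kept in each fit without 1 clone. The median of 0.02 over the 27 measured genes of the BCL2 family and cell death list changed sign between settings. Of 34 p53 targets, measured in cells labelled as lacking p53, 0 were called higher and 1 lower, Trp53i11 (2.94%, against a background of 1.97%). Trp53i11 was dark in all triploid clones and at least 3.32-fold lower (adjusted p = 0.0318, and up to 0.141 without diploid clones 1 or 2 or triploid clones 2 or 3). The median of the p53 targets was -0.18 (-0.28 to -0.12).

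Some genes were called with a triploid clone inside the even-ploidy range, 53 in all. At Penk, the precursor of enkephalin peptides, triploid clones 2 and 3 were dark (-9.08 ± 1.85, adjusted p = 0.0353), but diploid clone 2 read -0.71 and triploid clone 1 read 0.81. Fgf10, a growth factor of limb buds (-4.95 ± 1.06, adjusted p = 0.0424), and Adm, the vessel-widening peptide adrenomedullin (-5.90 ± 1.32, adjusted p = 0.0475), overlapped through triploid clone 1 as well, at -0.55 and 2.82. Fgf10 was dark in triploid clones 2 and 3 and Adm in clone 2, and with dark arrays held at the dimmest signal that passed, the differences were -8.11 for Penk, -3.60 for Fgf10 and -5.81 for Adm. Rab38, a small GTPase of pigment vesicles, was higher (3.76 ± 0.62, adjusted p = 0.0190, and 0.0747 without triploid clone 3). All 3 tetraploid clones were dark for it at -6.36 to -4.93, while diploid clones at -1.38 to 0.69 overlapped the triploid clones at -0.41 to 1.95. Penk, Fgf10 and Adm each kept their call in 3 or fewer of the 9 fits without 1 clone, with adjusted p values up to 0.156, 0.178 and 0.184.

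Probes that did not choose a gene read the same RNA elsewhere. For 227 genes above the range with other usable probes, 118 of 256 other probes (46.1%) also lay above, 0 lay below and 247 had a difference of the same sign. For 188 genes below the range, 118 of 217 other probes (54.4%) also lay below, 3 lay above and 198 had the same sign.

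Genes outside the range were unevenly placed on the chromosomes, which the comparison did not use and which were singled out after the values were seen. Chromosome 19 had 86 of 444 named genes above the range (19.4%), chromosome 2 had 163 of 986 (16.5%) and chromosome 6 had 70 of 606 (11.6%), against 6.28% of all named genes. Chromosome 7 had 153 of 984 below (15.5%), chromosome 12 had 58 of 419 (13.8%), chromosome 10 had 67 of 592 (11.3%) and chromosome X had 40 of 410 (9.76%), against 6.53%. Chromosomes 2 and 19 held 31.9% of genes above and 11.5% of those tested, and chromosomes 7, 10, 12 and X held 39.2% of genes below and 19.3% of those tested. On the remaining chromosomes, chromosome 6 included, 5.76% lay above and 5.22% below. The median difference of genes below on chromosomes 7, 10, 12 and X was -0.96, over genes picked for lying below. Over all named genes tested on these chromosomes, the medians relative to all features were -0.32, -0.30, -0.35 and -0.33.

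Per clone, the median over the genes of a chromosome, relative to the even-ploidy mean and to all features, lay below all 6 even-ploidy clones in the 3 triploid clones for 2 of 20 chromosomes and above them for 0. On chromosome 10 it was -0.41, -0.21 and -0.30 against -0.16 to 0.13. On chromosome 12 it was -0.74, -0.24 and -0.03 against -0.02 to 0.07, so triploid clone 1 was far lower than triploid clone 3. On chromosome 7 it was -0.21, -0.43 and -0.31 against -0.21 to 0.10. Chromosome X read -0.06 in triploid clone 1, within the even-ploidy range of -0.15 to 0.20, and -0.63 and -0.42 in clones 2 and 3. On chromosome 19, triploid clones at 0.06, 0.19 and 0.28 overlapped the even-ploidy clones at -0.10 to 0.27. They overlapped on chromosome 2 too, at 0.01, 0.15 and 0.24 against -0.12 to 0.16, and on chromosome 6, at -0.03, 0.14 and 0.21 against -0.13 to 0.26. The number of copies of each chromosome in these clones was not measured here.

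**Figure D5:**
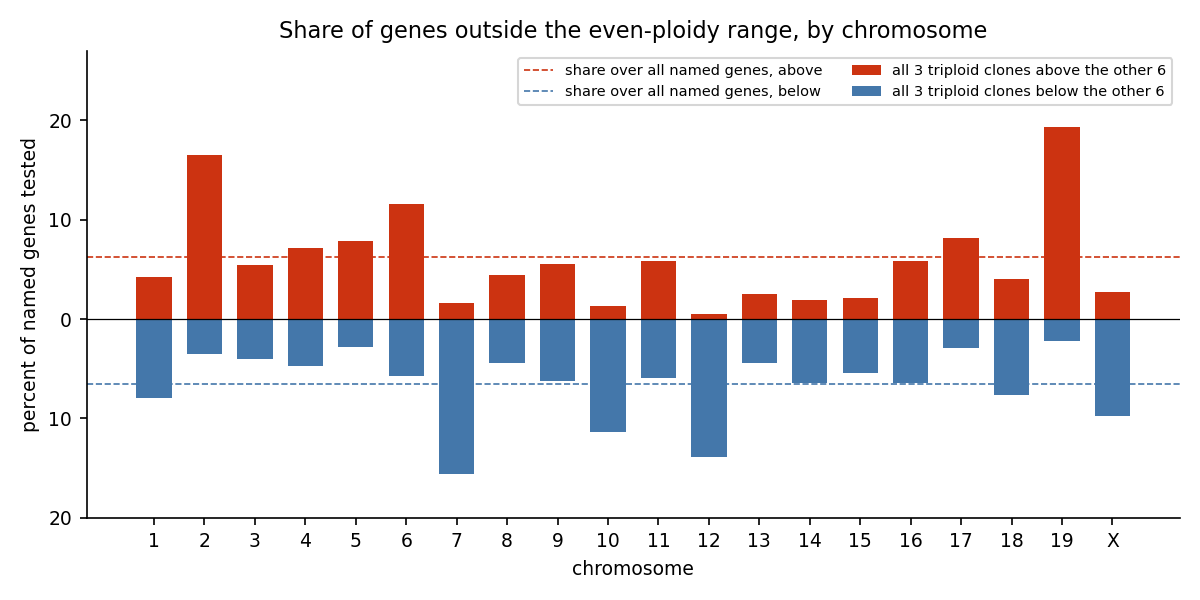
Bars give the percentage of named genes (y axis) of each chromosome (x axis) at which all 3 triploid clones lay above (red, upward) or below (blue, downward) the other 6, and dashed lines give the share over all named genes. Chromosomes 19 and 2 have the tallest upward bars, at 19.4% and 16.5%, and chromosomes 7 and 12 the longest downward bars, at 15.5% and 13.8%.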

How the data were processed

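The 9 single-colour Agilent arrays, 1 per clone, were deposited by the authors as scanner output. Per the file headers, the processed signal intensity and the above-background flags come from Feature Extraction 10.7.3.1, the tool the submitters' processing notes also name, on a design for mm9. The deposited series table holds log2 values: each was the log2 of the processed signal less an array constant and less diploid clone 1, within 0.001 for 100% of values on 55166 single-spot probes, and its medians by array ran from -0.57 to 0.38. Its scale and direction are thereby known, and the constant's origin is not.

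Log2 processed signals were centred on the 75th percentile of each array over non-control probes, spots of a probe were averaged, flagged spots were left out, and 83 probes with no usable spot on an array were dropped. Of 55681 probes, 26413 had a RefSeq symbol. The 25469 probes flagged well above background on every array of 1 or more ploidies were kept, and the brightest probe stood for a gene (3092 genes had several). In limma 3.58.1 (R 4.3.3), 1 mean per ploidy was fitted over all 9 arrays and triploid was set against the average of the diploid and tetraploid means, with Benjamini-Hochberg adjustment over 21797 features, a threshold of 0.05, 6 residual and 3.19 prior degrees of freedom. Errors after ± are standard errors unless marked SD. "At least" folds set each dark array at the higher of its own signal and the lowest signal called above background. The number of arrays limits the precision.

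Genes were named by rule: the 10 largest differences and 10 widest gaps in each direction among genes called and outside the range, the 5 of smallest adjusted p, the 5 widest gaps with a tetraploid minus diploid difference under 0.25, called or outside members of the gene lists, and the 3 largest called differences with a triploid clone inside the range. Members and lists were chosen with earlier results of these data known. Fits were checked on simulated data. Alternatives covered scaling, background correction (normexp, offset 50, on median signals, as mean signals are not in the files), the dim-probe filter, the probe rule, a pooled even-ploidy group, slide and clone number as blocks, and each clone left out. Clone numbers do not pair samples: deviations of same-numbered clones correlated at -0.13 to 0.09 over 9 pairs, and those of other numbers at -0.07 to 0.13. Slide 1 held diploid clone 1 alone, so the slide block equals leaving it out. The free-text descriptions of the other 8 clones name genes of other numbers, while the genotype field of all reads p53-/-. Values of 2 named genes are not reported here.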

Additional observations from a re-analysis of the deposited data

Results flagged for a closer look

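Single clones and single genes stood apart in 4 results. Among the 6 even-ploidy clones, diploid clone 2 was far below the others at Hoxd13 (0.98, the other 5 at 4.13 to 4.65) and at Aqp1 (3.81, the other 5 at 5.91 to 7.15). Of 36 genes examined in this way, 2 had such a clone, and chance gives about 1 in 20. At both genes diploid clone 2 remained above all triploid clones.

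The even ploidies differed from each other at 5 features called between triploid and even-ploidy clones, 2 of which are given here. Slc43a1, an amino acid transporter named after its values were seen, was lower in tetraploid than in diploid clones by -3.64 (adjusted p = 0.0479): all 3 tetraploid clones were dark at -5.25 to -4.94, diploid clones read -2.19, -0.76 and -1.58, and triploid clones -1.09, 0.61 and 0.42. Cracd, a regulator of actin capping, was lower in tetraploid than in diploid clones by -2.11 (adjusted p = 0.0314), with 0.33, -0.12 and 0.07 in diploid and -2.08, -2.10 and -1.86 in tetraploid clones. Cracd was dark in all triploid clones and at least 6.78-fold lower there than in even-ploidy clones, with a gap of 3.62.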

How the results depend on the processing

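The count of called features was 260 with no filter on dim probes (103 higher, 157 lower) and 322 with slide as a block (115 higher, 207 lower), of which 305 were also called without the block. With clone number as a replicate block, it was 563 (166 higher, 397 lower). Centring on the median gave 136 higher calls with 681 features above and 1329 below the range. Leaving out 1 clone at a time gave 127 to 1626 called, 35 to 654 higher and 92 to 972 lower, with 1397 to 3154 features above and 1107 to 2240 below the range, where fewer clones have to be cleared. With a clone left out, the remaining 2 of its ploidy share the spread of the other groups.

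Other settings gave 542 to 786 calls. Of 90 named genes called, 38 passed in all of the 20 settings that measured them, and 0 of 3375 values of named genes were reversed. The replicate block ended 17 of the 90 calls, the slide block 29 and leaving out triploid clone 3 ended 47. The medians of 17 of 29 lists kept their sign. Signals near background limit the size of differences at genes dark in a group, where the fitted value exceeds the bound: it was -9.77 against -7.54 at Hoxd13 and -8.78 against -6.78 at Hoxa11.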

Other observations

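Single genes of the interferon, antigen presentation, NRF2 and metallothionein, and proteasome lists were called (background 1.20% higher, 1.97% lower). The shares called were 4.55% in each direction for the interferon list and for the NRF2 and metallothionein list. They were 5.88% higher for antigen presentation and 2.56% lower for the proteasome. Heat shock and unfolded protein response genes had 0 of 39 called. Of 22 interferon genes, the regulator Irf1 was higher in triploid clones (1.04 ± 0.19, adjusted p = 0.0242) and Ifit3 lower (-2.55 ± 0.48, adjusted p = 0.0279), with triploid clones of Ifit3 at -3.24 to -3.06 and the others at -2.65 to 1.15. Of 17 antigen presentation genes, the class I gene H2-M3 was higher, at 1.22, 2.39 and 1.60 against -2.80 to -0.19 (3.50 ± 0.53, adjusted p = 0.0140). The metallothionein Mt2 read 6.83, 6.81 and 5.89 against 3.35 to 5.05 (2.33 ± 0.38, adjusted p = 0.0175, and 0.0854 without triploid clone 2). On the same list of 22 NRF2 targets and metallothioneins, the glutathione transferase Gsta1 was lower (-2.77 ± 0.47, adjusted p = 0.0209, a call that ended without triploid clone 2 or tetraploid clone 1), and dark in triploid clones 1 and 2. Of 39 proteasome genes, the subunit Psmd8 was lower, at 4.61, 4.62 and 4.54 against 5.22 to 6.08 (-0.96 ± 0.19, adjusted p = 0.0350), and kept its call in 3 of the 9 fits without 1 clone (up to 0.152). The calls of Irf1, Ifit3 and H2-M3 ended without triploid clone 2 or 3, and those of Irf1 and Ifit3 also without diploid clone 1 or tetraploid clone 1, with adjusted p values up to 0.113, 0.116 and 0.0726.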
